A study of Mus musculus with 10 samples.

Results

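The miRNAs let-7b and let-7c (mmu-let-7b and mmu-let-7c) were measured by 2 probes of a panel of 566 mouse miRNA probes, taken by name from the deposited table. They were chosen because their raw counts, in these same libraries, lay well above background in some and near it in others, so the levels below are a description and no test is built on that pattern. Total RNA came from Abelson virus-transformed B cell progenitors, which the retroviral kinase v-Abl keeps growing in culture. All lines were derived from fetal liver of C57BL/6 mice at E14.5 and kept in the same medium, with IL-7 added at transformation. One group of 5 libraries was wild type (numbered 1 to 5) and the other, also of 5, was homozygous for a mutation of the Bim 3'UTR, Bim3'UTRmut/mut (6 to 10). Bim is a protein that promotes apoptosis, and the mutated bases are not named in the labels. The labels do not state whether each culture came from its own embryo, so p-values rest on a spread that may be partly technical.

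let-7 miRNAs are cut by Drosha and Dicer from hairpins encoded at several loci, and they repress growth and proliferation genes such as Ras, Myc and Hmga2. Their maturation is blocked by Lin28 proteins. In fetal liver B-lineage progenitors Lin28b holds mature let-7 down, and its loss accompanies the switch to adult-type lymphopoiesis. The mRNAs of Lin28b and of let-7 targets were not analysed here.

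The mature sequences (RefSeq, GRCm38.p6, 5′ to 3′) are shown because the members differ from each other, and from let-7a, by so little. Capitals mark the seed, bases 2 to 8, which all 9 let-7 and miR-98 probes of the panel share.
let-7b: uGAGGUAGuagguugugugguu
let-7c: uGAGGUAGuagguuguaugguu
let-7a: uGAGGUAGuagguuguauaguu
let-7d: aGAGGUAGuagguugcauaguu
let-7e: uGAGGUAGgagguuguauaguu
let-7f: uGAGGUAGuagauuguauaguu
let-7g: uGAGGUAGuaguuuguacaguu
let-7i: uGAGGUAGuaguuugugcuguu
miR-98: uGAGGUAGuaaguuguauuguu

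Counting from the 5′ end, let-7b differs from let-7c by 1 base (A17G, written as the let-7c base, the position and the let-7b base). let-7c differs from let-7a by 1 other base (A19G, let-7a base first), and let-7b from let-7a by both (A17G and A19G). The mature let-7b lies at chr15:85707325-85707346 on the plus strand. The let-7c sequence is encoded at 2 places, chr15:85706616-85706637 in Mirlet7c-2 and chr16:77599672-77599693 in Mirlet7c-1, both on the plus strand. The Mirlet7c-2 and Mirlet7b hairpins are 621 bases apart, within the span of the lncRNA gene Lncppara (chromosome 15, 85703773 to 85707524). Mirlet7c-1 instead lies 656 bases from the Mir99a hairpin. A let-7c count cannot be assigned to either let-7c gene.

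RNA was counted on a NanoString nCounter, in which each miRNA is joined to a tag and its barcoded probe is counted molecule by molecule. Libraries held 240469 to 354826 mouse miRNA counts. The background threshold, the mean + 2 SD of a library's 8 negative control probes, was 90.5 to 127 counts. Of 60 values of 6 B-lymphoid and blood miRNA probes, 56 exceeded it, against 5 of 150 values of 15 probes that mark other cell types. The latter summed to 682 to 794 counts in wild type and 548 to 940 in mutant libraries. Lane order followed sample number, so an effect of the lane and one of genotype cannot be told apart.

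let-7b was present in every wild type library and in 2 of 5 mutant libraries, and it was at background in the other 3. Its raw counts were 829, 899, 771, 696 and 456 in wild type 1 to 5. Mutant 6, 7 and 8 had counts of 26, 37 and 25, whereas mutant 9 and 10 had 1209 and 1418. In raw counts the mutant libraries thus lay either below or above the wild type range, with none inside it. Library totals differed, however. As a share of miRNA counts, let-7b in mutant 9 (0.341%) was inside the wild type range of 0.185% to 0.354%, and in mutant 10 (0.428%) it was above. The counts of mutant 6, 7 and 8 were below the mean of their own negative controls (48.1, 58.5 and 38.9), while those of the remaining 7 libraries were 3.88 to 13.9 times their threshold. Ordered by count, the widest step between neighbouring libraries was from 37 to 456, or 12.3-fold.

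let-7c, which the same chromosome 15 locus also encodes, had nearly the same order of libraries. Its counts were 1068, 1068, 945, 773 and 610 in wild type 1 to 5. The mutant libraries 6, 7 and 8 gave 96, 87 and 49, and libraries 9 and 10 gave 1663 and 1784. Again no mutant library lay inside the wild type range of raw counts. let-7c in mutant 6 was just over its threshold (96 against 95.3), so 8 libraries counted as above background by this threshold and 7 with the mean + 3 SD of the negative controls. Unlike let-7b, let-7c in mutant 6, 7 and 8 exceeded the mean of the negative controls (48.1, 58.5 and 38.9).

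Among neighbours in the order of let-7b counts, mutant 10 and 9 lay apart by their 95% Poisson intervals (1345 to 1494 and 1142 to 1279). Wild type 2 (841 to 960) and 1 (774 to 887) overlapped, as did the further pairs down to wild type 4. Wild type 5 (415 to 500) lay apart from both of its neighbours, and mutant 7, 6 and 8 overlapped. For let-7c, mutant 10 and 9 overlapped (1702 to 1869 and 1584 to 1745) and both lay above every wild type interval. Wild type 5 was again the lowest wild type library. These intervals cover counting error only. After normalisation by TMM factors, let-7b in mutant 9 was 1.05 times the highest wild type value and in mutant 10 it was 1.42 times. The same ratios for let-7c were 1.22 and 1.51.

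**Figure D1:**
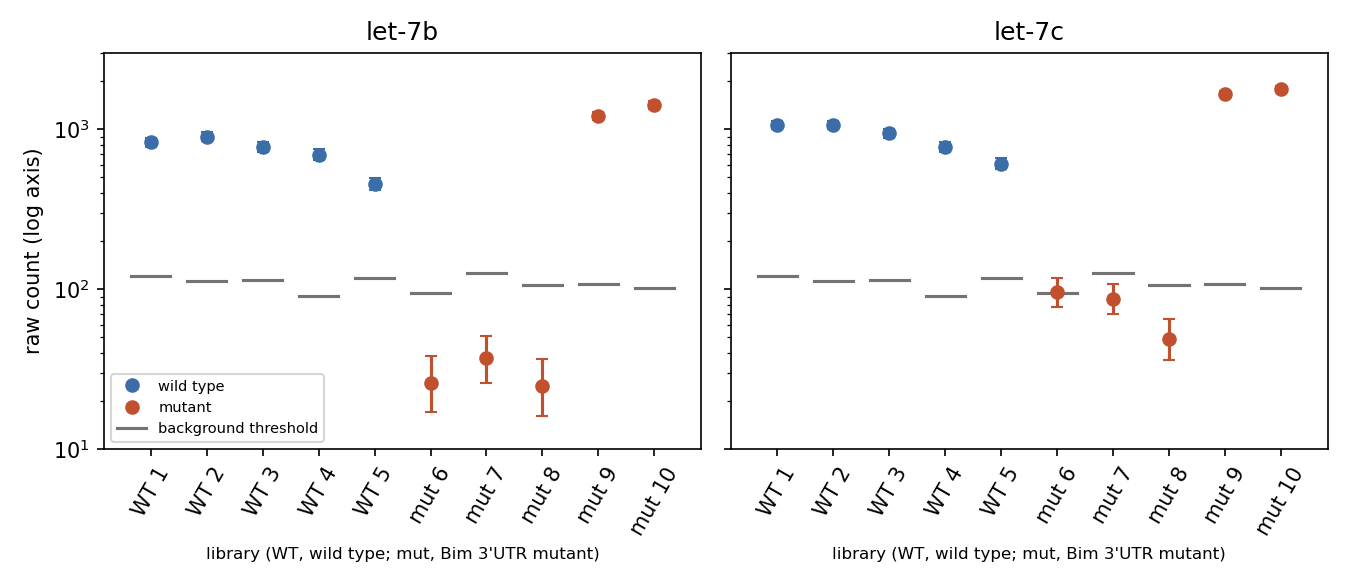
Raw counts of let-7b (left) and let-7c (right) in each library on a log axis, with exact 95% Poisson intervals as bars and each library's background threshold as a grey line. Wild type libraries lie at 456 to 899 and 610 to 1068 counts, mutant 6 to 8 at or below the threshold (let-7c in mutant 6 just over it), and mutant 9 and 10 above the wild type range.

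The members kept a narrow ratio to each other wherever both were well above background. let-7b was 0.776, 0.842, 0.816, 0.900 and 0.748 times let-7c in wild type 1 to 5, and 0.727 and 0.795 times in mutant 9 and 10. Over these 7 libraries the sum of the pair ran from 1066 to 3202 counts. With the negative control mean subtracted the ratio ran from 0.719 to 0.894. In mutant 6, 7 and 8 it was 0.271, 0.425 and 0.510, from counts at or near background. Over all 10 libraries the log2 normalised counts of the members had a Pearson r of 0.99, which describes mainly the distance between high and low libraries.

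The other 7 probes with the same seed varied far less than let-7b and let-7c. let-7a counted 5577, 5452, 4369, 4551 and 4209 in wild type 1 to 5, and 5138, 5181, 5755, 6740 and 5969 in mutant 6 to 10. The mutant libraries with let-7b at background were thus within or above the wild type range of let-7a. The highest count of each of the 7 probes was 1.25 to 1.74 times its lowest, against 56.7 times for let-7b and 36.4 times for let-7c. The median of this ratio was 1.92 over the 116 miRNA probes that exceeded the threshold in 5 or more libraries. let-7b and let-7c ranked 1 and 3 by it, and the probes at ranks 2 and 4 (48.4 and 32.9 times) exceeded the threshold in all 10 libraries. The lowest counts of let-7b (25) and let-7c (49) were below the threshold, so the size of the members' ratios and SDs rests partly on background. The SD of log2 normalised counts across mutant libraries was 2.87 for let-7b and 2.40 for let-7c, ranks 1 and 3 of the 116, and 0.06 for let-7a, the lowest of them. Across wild type libraries the SDs were 0.33 and 0.29, ranks 28 and 36, against a median of 0.18.

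let-7d, the family's probe with a different first base, counted 5285 to 6103 in wild type and 5830 to 6622 in mutant libraries. let-7g counted 8065 to 9688 in wild type libraries. Mutant 6, 7 and 8 gave 8332, 8087 and 9681 counts of it, whereas mutant 9 and 10 gave 13076 and 13476. It thus shared with the members the high raw counts of mutant 9 and 10, but in mutant 6, 7 and 8 its raw counts stayed inside the wild type range. As a share of miRNA counts, let-7g in mutant 9 (3.685%) was inside the wild type range of 3.171% to 3.689%, and in mutant 10 (4.066%) above it. After TMM normalisation, let-7g in mutant 7 (7919) was below the lowest wild type value (8553). In mutant 9 and 10 (10655 and 12627) it was above the highest (10117.5). let-7f ran from 3389 to 5502 and let-7i from 6684 to 8734 over all 10 libraries. let-7e (227 to 395) and miR-98 (293 to 388) were the scarcest, yet above background in every library. In mutant 6, 7 and 8 they therefore gave more counts than either member.

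**Figure D2:**
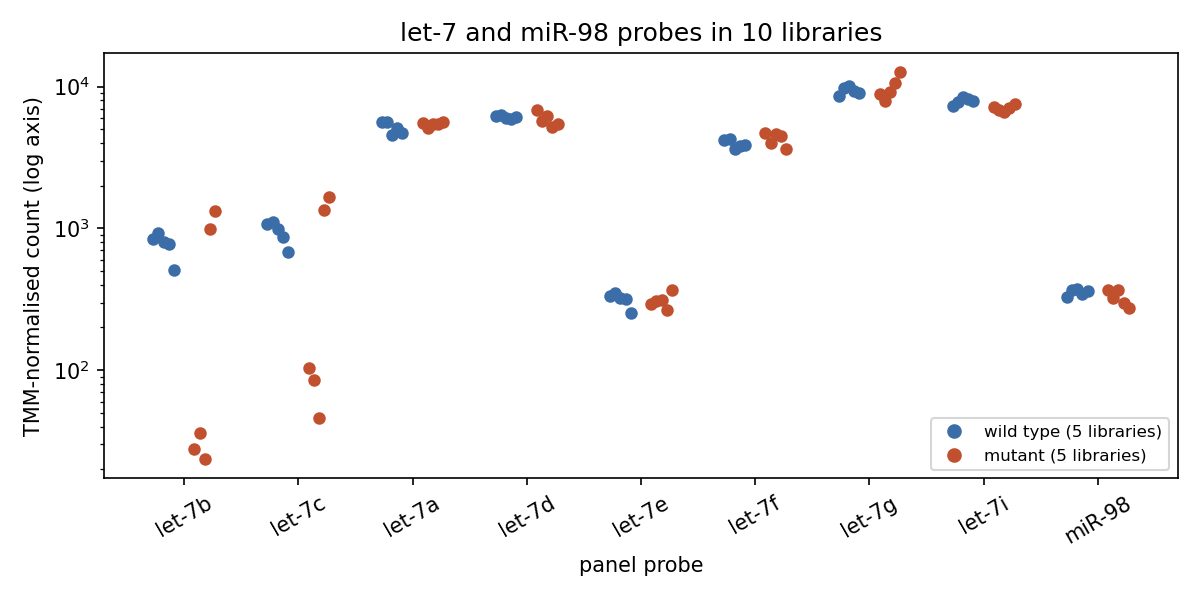
TMM-normalised counts (log axis) of the 9 probes that share the let-7 seed, 1 point per library, wild type in blue and mutant in red. let-7b and let-7c lie at 23.6 to 36.2 and 46.2 to 103 in mutant 6 to 8 against 985 to 1329 and 1355 to 1672 in mutant 9 and 10; let-7g is also lower in mutant 6 to 8 (7919 to 9124 against 10655 and 12627), and let-7d and miR-98 are higher there, over far narrower ranges.

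The low libraries also bound how far these probes could count a near relative, since the tables hold no probe sequences. In mutant 6, 7 and 8 the let-7c count was 1.87%, 1.68% and 0.851% of the let-7a count, though let-7a differs from let-7c by 1 base. The let-7b count was 0.506%, 0.714% and 0.434% of it. In the remaining libraries the let-7c count was 14.49% to 29.9% and the let-7b count 10.8% to 23.8% of the let-7a count. Binding of let-7b to the let-7c probe, or the reverse, was not tested, because no library held one member well above background and the other at it.

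let-7b and let-7c made up a small part of the family. They took 5.57%, 5.60%, 5.09%, 4.76% and 3.56% of the counts of the 9 probes in wild type 1 to 5. In mutant 6, 7 and 8 they took 0.386%, 0.400% and 0.212%, and in mutant 9 and 10 they took 6.53% and 7.79%. The summed share of the other 7 probes was 12.3% ± 0.501 in wild type and 12.0% ± 0.447 in mutant libraries, as a percentage of all miRNA counts (mean ± SD, n = 5 each). The difference of -0.30 percentage points was smaller than the spread between replicates (exact two-sided permutation p = 0.341, smallest possible 0.00794, n = 5 each). With all probes as the denominator the difference turned to 0.23 percentage points (exact permutation p = 0.262). The summed counts of the 7 probes scaled to the positive controls, which are not a share, had a mean 4913 higher in mutant libraries (exact permutation p = 0.0556). That scaling raised the panel as a whole, with a median log2 fold change of 0.20 over the 116 miRNAs tested.

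**Figure D3:**
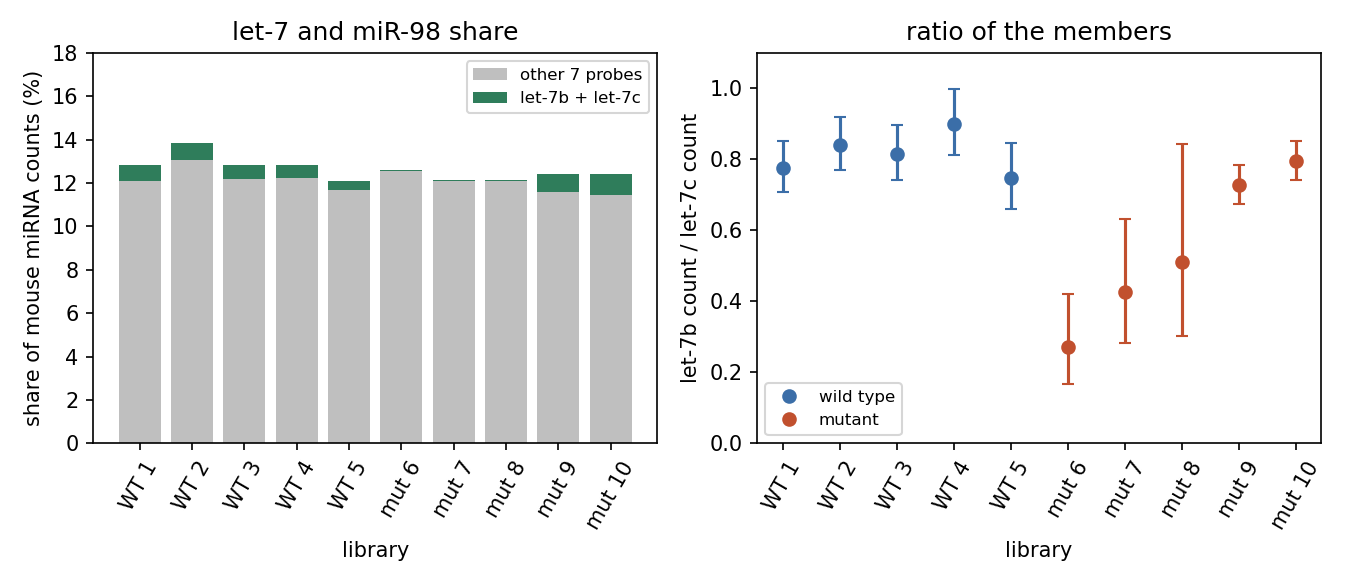
Left, share of mouse miRNA counts in each library taken by the other 7 let-7 and miR-98 probes (grey) and by let-7b plus let-7c (green). Right, the let-7b count over the let-7c count with exact 95% binomial intervals; the ratio is 0.727 to 0.900 in the 7 libraries with both members well above background, and the grey share is 11.4% to 13.1% throughout.

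In the comparison of genotypes, the normalised count of let-7b was 774 ± 159 for wild type and 480 ± 630 for mutant libraries (mean ± SD, n = 5 each). The fitted log2 fold change, mutant over wild type, was -0.69 (95% interval -3.20 to 1.82; edgeR quasi-likelihood adjusted p = 0.831). For let-7c the means were 946 ± 175 and 652 ± 794, with a log2 fold change of -0.54 (-2.68 to 1.61; edgeR adjusted p = 0.842). The SD of the mutant group exceeded its mean for both members, and the groups overlapped. Of the 2 members, 0 were called, against 0 of 116 miRNAs tested (0%); DESeq2 called 5 of the 115 with an adjusted p (4.35%), let-7i but neither member among them, and limma with voom weights called 0. At an unadjusted p under 0.05 edgeR had 11 of 116. Values did not overlap between genotypes for 3 of the 116 (2.59%), again neither member. Since the members were chosen from these counts, the fits are given as a description. The estimate depended on single mutant libraries, in both directions. Without mutant 10 the log2 fold change was -1.60 for let-7b and -1.32 for let-7c (edgeR adjusted p = 0.561 and 0.562), and without mutant 9 it was -1.06 and -0.92. Without mutant 7 it was -0.39 and -0.25. With limma-voom, which averages logs, the log2 fold change was farther below 0 than in the main fit (-2.92 and -1.87, adjusted p = 0.424 for both).

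Among the remaining 7 probes of the family, 3 had a log2 fold change above 0 and 4 below, from -0.16 for let-7i to 0.12 for let-7f, with a median of -0.03 against -0.00 over all 116. None passed in edgeR (lowest adjusted p 0.373, let-7i). With DESeq2, let-7i passed at a log2 fold change of -0.16 (adjusted p = 0.0424). All 7 had a log2 fold change above 0, without passing in edgeR, when scaled to housekeeping mRNAs (let-7i 0.32) or positive controls (let-7i 0.05). These scalings moved the whole panel: the median over all 116 was 0.46 with housekeeping mRNAs and 0.20 with positive controls. In bulk RNA, fewer cells that hold a miRNA and less of it per cell cannot be told apart.

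Relatives encoded beside let-7 genes outside chromosome 15 were counted too. Their counts need not follow those of the let-7 gene: let-7e was above background in every library and its neighbour miR-99b in none. miR-99a, hosted with let-7c-1 on chromosome 16, counted 112, 119, 98, 88 and 73 in wild type 1 to 5 and 71, 78, 57, 71 and 59 in mutant 6 to 10. It exceeded the threshold in 1 of 10 libraries, wild type 2. Which gene gave the let-7c counts was not tested. miR-125b-5p, encoded near let-7c-1 and at a second locus, exceeded the threshold in 2 libraries, wild type 3 and 4, and counted 24 to 41 in the mutant libraries. miR-100 and miR-99b, hosted with let-7a-2 and let-7e, exceeded it in none, and miR-125a-5p, beside let-7e, in 1. The other arm of that hairpin, miR-125a-3p, exceeded it in 8. Apart from miR-125a-3p in mutant 9, differences among counts this close to background are not resolved at this depth.

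The miRNAs most like the members were ranked by Pearson r of log2 normalised counts over the 10 libraries, as a description, since the libraries share their scaling and fall into sets. After each other, let-7b was most like miR-29b (r = 0.87), miR-22 (0.87) and miR-21 (0.86), and let-7c most like miR-22 (0.85), miR-29b (0.85) and miR-23b (0.84). Without the 2 libraries farthest from the member's median, r with let-7b was 0.76, 0.73 and 0.85 for miR-29b, miR-22 and miR-21. With let-7c it was 0.90, 0.65 and 0.89 for miR-22, miR-29b and miR-23b. The libraries left out were mutant 6 and 8 for let-7b, and mutant 7 and 8 for let-7c. A low library thus stayed in each set (mutant 7 for let-7b, mutant 6 for let-7c), and the values of the members rest on different libraries.

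miR-22, a miRNA that represses Tet2, counted 341, 575, 420, 466 and 227 in wild type 1 to 5. The mutant libraries 6, 7 and 8 had 105, 214 and 180, and libraries 9 and 10 had 1038 and 1218. As with the members, these lay below and above the wild type range, but all 10 counts were above their background threshold. miR-21, an abundant miRNA linked to proliferation, counted 5546 to 8525 in wild type and 2701, 4770 and 5594 in mutant 6, 7 and 8. Its counts in libraries 9 and 10 were 9199 and 10561. After TMM normalisation, miR-21 in mutant 9 (7496) was inside the wild type range of 6217 to 8860, and in mutant 10 (9896) above it. miR-29b, which represses DNA methyltransferases and Mcl1, ran over a narrow range of raw counts. It had 1437 to 1726 in 7 libraries and 1169, 1224 and 1280 in mutant 6, 7 and 8. After TMM normalisation, miR-29b in mutant 9 (1347) was also below the wild type range of 1611 to 1695. By Spearman rank correlation, its likeness to let-7b was 0.56, against 0.94 for miR-22 and 0.88 for miR-21. miR-23b ran from 413 to 763.

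At the opposite end lay miR-210, the miRNA induced by hypoxia (r = -0.80 with either member). Its counts of 1092, 851 and 1403 in mutant 6, 7 and 8 lay above the wild type range of 135 to 505, and mutant 9 and 10 had 48 and 388. For let-7b, miR-15b (-0.76) and a single probe for miR-106a and miR-17 (-0.72) came next. For let-7c they were the probe for miR-106a and miR-17 (-0.72) and the joint probe of miR-20a and miR-20b (-0.72). Of the other let-7 probes, let-7i (r = 0.68 with let-7b and 0.67 with let-7c) and let-7g (0.59 and 0.60) came nearest by Pearson r. They were at rank 12 and 19 of 115 for let-7b, and let-7f lay lowest (-0.55 and -0.51). Without the 2 farthest libraries of each member, which differ between the members, r was 0.51 and 0.24 for let-7i and 0.695 and 0.518 for let-7g. By Spearman rank correlation let-7g came nearest (0.68 and 0.71), while let-7i had 0.33 and 0.36. The control mRNAs B2m and Gapdh also differed between these libraries, in opposite directions. B2m, part of MHC class I, was low where the members were low, at 1490 to 1592 counts in mutant 6 to 8 and at least 3250 in the other libraries. Gapdh, a glycolytic enzyme, ran against the members, at 966 to 1187 counts for mutant 6 to 8 and 625 to 901 for wild type, against 244 and 309 for mutant 9 and 10. The part of these differences between cultures in the let-7b and let-7c levels was not tested.

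**Figure D4:**
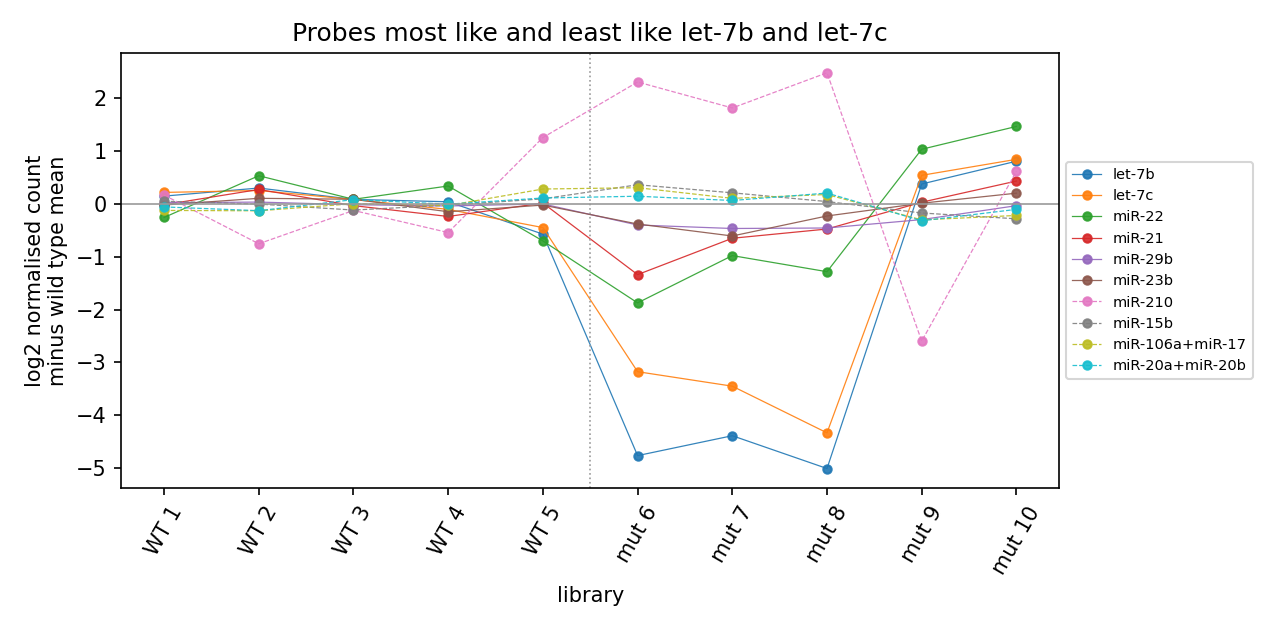
Log2 normalised counts minus the wild type mean for let-7b, let-7c, the probes most like them (solid lines) and least like them (dashed lines); lines only join the points of a probe, and libraries have no order within a genotype. let-7b, let-7c and miR-22 are low in mutant 6 to 8 and high in mutant 9 and 10, and miR-210 is high in mutant 6 to 8.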

How the data were processed

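The 2 deposited tables hold raw counts, the same 6260 values in each; they are whole numbers and library totals differ, so no normalisation by the authors was apparent. Per the labels' protocols, the input was 100 ng of RNA and samples of low purity were left out; any further step is not given in the sources used here. Groups were taken from sample titles. A probe was above background when it counted more than the mean + 2 SD of the library's 8 negative controls, and the 116 miRNA probes that did so in 5 or more libraries were tested. let-7b and let-7c passed this filter through the libraries where they were high.

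The genotype test was edgeR's robust quasi-likelihood test (edgeR 4.0.16 in R 4.3.3), scaled by TMM factors of 0.872 to 1.11, with p-values adjusted by Benjamini-Hochberg over all 116 and a threshold of 0.05. Intervals use the SE and 8 degrees of freedom. DESeq2 1.42.0 and limma 3.58.1 served as alternatives, with other scalings, filters, background subtraction and leaving out each library. The share of the other let-7 probes was compared by an exact permutation test. Sequences were matched by name to RefSeq mature miRNAs, for all 9 let-7 and miR-98 probes.

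The text names both members, every other let-7 or miR-98 probe, 6 relatives encoded beside let-7 genes, the 4 miRNAs most like and 3 least like each member, and the control mRNAs. Members, lists and tests were chosen with earlier results of these data known.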

Additional observations from a re-analysis of the deposited data

Results flagged for a closer look

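In 50 sets of 5 values (each genotype's values of the named miRNAs, of the share of the other let-7 probes and of the let-7b to let-7c ratio), 2 held a library far from the rest of its group; chance gives this for about 5% of sets. miR-125a-3p, from the hairpin beside let-7e, had 962 normalised counts in mutant 9, against 90.0 to 181 in the other mutant libraries. miR-100 had 52.7 normalised counts in wild type 4, against 27.0 to 32.5 in the other wild type libraries, all below background. No set of let-7b, let-7c or their ratio met this criterion, in either genotype. The mutant values of the members fell into 3 low and 2 high libraries, a split that a criterion for 1 library apart does not flag.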

How the results depend on the processing

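The log2 fold changes of let-7b and let-7c between genotypes kept their negative sign and did not pass under 9 of 10 other settings each; scaling to the housekeeping mRNAs, which moved the median of all miRNAs to 0.46, turned them to 0.035 and 0.173. Requiring detection in all libraries removed both members. Leaving out 1 library gave -1.60 to -0.39 for let-7b and -1.32 to -0.25 for let-7c, with adjusted p from 0.561 to 0.970. The number of miRNAs called was 0 except for 5 with the DESeq2 Wald test and 1 without mutant 10, so leaving out a library gave 0 to 1. The unadjusted count moved more, from 11 to 52 with housekeeping and 23 with positive-control scaling. The difference in the share of the other 7 probes turned to 0.23 percentage points over all probes (exact permutation p = 0.262), and leaving out 1 library gave -0.45 to -0.10. Their summed positive-control scaled counts, which are not a share, had a mean 4913 higher in mutant libraries (exact permutation p = 0.0556). The number of libraries above background was 7 for let-7b under each of 3 other thresholds, and 7 or 8 for let-7c. No paired analysis was possible because the genotypes share no sample numbers. Depth limits what can be said of mutant 6 to 8, where let-7b could not be told from background.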
